A study of Canis lupus familiaris with 6 samples.

Results

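The genes described here were the chemokines, the interleukins and their receptors on a canine expression array. Members were taken by name alone, as every gene whose symbol in the array design begins with CCL, CXCL, CX3CL, CCR, CXCR or IL followed directly by a digit. This gave 112 genes with 164 probes of 60 bases, out of 43603 probes in all. The rule also takes in genes named after an interleukin that are neither cytokine nor receptor, such as the enzyme gene IL4I1. The RNA came from MDCK cells, a dog kidney epithelial line. Every sample was the same cell, the MDCK-pTR GFP-RasV12 line that also carries mCherry-β-catenin Δ131, here called the β-cat ΔN/RasV12 cell. Its β-catenin is expressed constitutively and is stabilised by the lack of an N-terminus, and its RasV12, an active Ras oncoprotein fused to GFP, is switched on by tetracycline. In the single culture (3 arrays) these cells grew alone. In the mix culture (3 arrays) they grew among β-cat ΔN cells, which carry the same β-catenin without RasV12, at 10 neighbours to 1. Both cultures received tetracycline for 24 h on collagen-coated dishes, after which a flow cytometer collected the GFP-positive cells, and Cy3-labelled RNA from these was hybridised. The comparison asks which transcripts of a cell that carries both alterations differ when β-cat ΔN cells surround it. The sources used here do not say whether the arrays of a group came from separate cultures, so the p-values measure the spread between these samples, which may be technical.

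Chemokines are small secreted or membrane-bound proteins that guide the movement of leukocytes. They fall into CC, CXC and CX3C families by the spacing of their first cysteines, and they act through receptors that couple to G proteins. Interleukins are signalling proteins that cells of the immune system and epithelia exchange, and they act through receptors built from several chains, some of which are shared. Epithelial cells are a common source of chemokines, many of which are targets of the transcription factor NF-κB.

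A probe was called detected on an array when the scanner software marked it as well above background. On the 6 arrays, 61.11% to 65.66% of 43803 non-control spots met this mark, and none was saturated. Replicate 1 of each group lay on slide 1, and replicates 2 and 3 of each group lay on slide 2, which was read with another software version and scan resolution. With the culture in the model, limma called 47.2% of all tested probes, and 32 of 59 tested probes of the family, as differing between slides (adjusted p under 0.05). Both slides held both cultures in equal number, so changes are given over all arrays, within each slide, and with the slide or the replicate number as a block. All 10 kidney epithelium markers on the array were detected on all 6 arrays. Among 12 leukocyte markers, 5 were detected on no array, including PTPRC, CD3D and MS4A1, which define leukocytes, T cells and B cells. The summed signal of the leukocyte list, in units of each array's 75th percentile, was 1.68 to 2.03 in the single culture and 1.57 to 1.81 in the mix culture. In RNA from a sorted population, fewer cells of a type and less RNA per cell cannot be told apart.

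The probes that the results turn on are shown here because each value below is the brightness of one such 60-base sequence. All positions are those of the array design on CanFam3.1. The first is that of CCL20, the gene with the largest change, on the plus strand at chr25:40508815-40508874. The next are those of CXCL16 (plus strand, chr5:31820142-31820201), IL34 (plus strand, chr5:76611776-76612073, laid over a stretch longer than the probe), CXCR6 (minus strand, chr20:42565620-42565679) and IL1RN (plus strand, chr17:37249267-37249326).
CCL20: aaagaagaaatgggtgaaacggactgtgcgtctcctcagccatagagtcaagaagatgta
CXCL16: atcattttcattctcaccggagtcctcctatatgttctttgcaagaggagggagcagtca
IL34: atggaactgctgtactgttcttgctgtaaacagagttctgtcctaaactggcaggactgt
CXCR6: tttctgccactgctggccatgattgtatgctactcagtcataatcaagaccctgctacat
IL1RN: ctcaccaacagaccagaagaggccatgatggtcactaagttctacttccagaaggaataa

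About as many genes of the family went undetected as were detected on any array. Of the 112 genes, 40 had a probe well above background on all 6 arrays, 17 on 1 to 5 arrays and 55 on none. By probe, 31.7% of the family were detected on all 6 arrays, against 58.7% of all probes on the array, and 54.3% on none, against 32.3%. The undetected genes included IL6 (2 probes), IL1A, IL1B (3 probes), IL33 (2 probes), IL13, IL17A and CXCL12, and 8 of 15 chemokine receptors. CXCL8, the main neutrophil chemokine, had 4 probes, of which 3 were detected on no array and the other on 1 single culture array. The IL6 probes gave 0.9 to 2.1 intensity units over all arrays, below the lowest signal that was well above background on any array (4.188). An undetected probe gives no measure of change at this sensitivity.

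**Figure D1:**
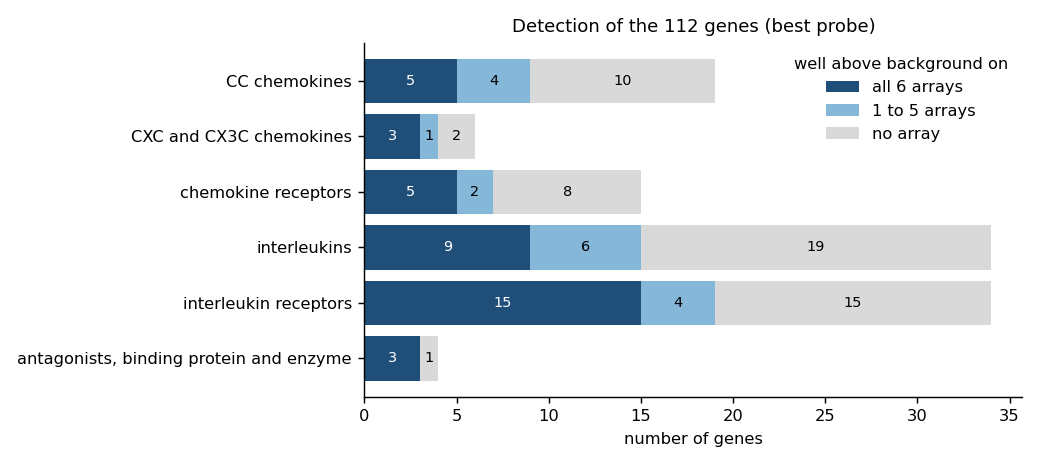
Number of genes (horizontal axis) in each role group whose best probe was well above background on all 6 arrays, on 1 to 5 or on none. No array detected 10 of 19 CC chemokines, 8 of 15 chemokine receptors and 19 of 34 interleukins, and all 6 arrays detected 15 of 34 interleukin receptors.

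Of the 164 probes, 59 (47 genes) were tested, namely those detected on all 3 arrays of one group or of both. With no block, limma called 1 of these 59, CCL20, where it called 0.871% of all 26623 probes tested. Of the 59, 9 had an unadjusted p under 0.05, as did 8.71% of all probes tested. With the slide as a block, 7 of 59 were called (11.9%), against 7.22% of all probes tested. With the replicate number as a block, 7 were called against 5.30% of all probes, and 6 probes were called in both blocked fits. CCL20 entered the test only through the mix culture, and the calls with a block also include IL34, which was not detected in any single culture. The groups did not overlap for 9 of the 59 probes (15.3%), against 16.5% of all probes tested, so this share was near the background. The 47 genes, each by its brightest tested probe, had a median log2 change of -0.07, where that of all probes tested was -0.05. Of these genes, 36 had a log2 change under 0.5 in size, and 40 were called in none of the fits with no block, the slide block or the replicate block.

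CCL20, which attracts T helper 17 cells and dendritic cells through CCR6, was the lead of the CC chemokines. Its signal was 4.9, 7.4 and 3.7 intensity units in single cultures 1, 2 and 3, and 86.3, 59.7 and 49.0 in mix cultures 1, 2 and 3. Every mix culture array lay far above every single culture array, and the probe was well above background on 2 of 3 single culture arrays and on all 3 mix culture arrays. In log2 signal relative to the array's 75th percentile, it rose from -5.15 ± 0.58 to -1.58 ± 0.14 (SD, n = 3 arrays each). This was a log2 change of 3.57 (SE 0.29, adjusted p = 0.00295 in limma), or 11.9-fold, with a 95% interval of 2.88 to 4.25 on the log2 scale. The change was 3.96 on slide 1 and 3.37 on slide 2, and a test of the difference between the slides gave an unadjusted p of 0.305 in limma. With the slide block the adjusted p was 0.00023 and with the replicate block 0.00016. The probe entered the test only through the mix culture. Its single culture signal lay close to the lowest signal marked as detected, and single culture 3 (3.7) lay under that of its array (4.331). The fit and the size of the fold therefore rest on values near background. With normexp background correction of the median spot signal and an added offset of 50 intensity units, the log2 change was 0.99 (SE 0.11, adjusted p = 0.0199 in limma). CCR6, the receptor of CCL20, was detected on no array.

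CCL5, which draws T cells and monocytes, gave 14.1, 10.8 and 7.6 intensity units in single cultures 1, 2 and 3, and 42.3, 22.9 and 18.7 in mix cultures 1, 2 and 3. The groups did not overlap, and the slide 1 array was the highest of each group. The log2 change was 1.26 (SE 0.25), or 2.39-fold. It was not called without a block (limma adjusted p = 0.0999) and was called with the slide block (0.00333) and the replicate block (0.00269). Within slide 1 it was 1.40 and within slide 2 it was 1.19. With the normexp correction and offset used for CCL20, it was 0.31 (SE 0.1, adjusted p = 0.55 in limma without a block). CCR1 and CCR3, which bind CCL5, were detected on no array.

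The other 5 CC chemokines tested were CCL2, CCL14, CCL17, CCL22 and CCL27, and none was called in these fits. CCL2, the monocyte chemokine that acts through CCR2, stood at 4.9, 3.9 and 2.8 intensity units in single cultures and at 5.6, 7.8 and 5.3 in mix cultures, and only 1 of the single culture values was well above background. Its log2 change over all arrays was 0.64 (95% interval 0.01 to 1.28, limma adjusted p = 0.562 without a block). It was 0.00 on slide 1 and 0.97 on slide 2 (interaction, unadjusted p = 0.0326 in limma), a difference not called after adjustment. CCL17 and CCL22, both ligands of CCR4, were detected on all 6 arrays. CCL17 lay between 2271 and 5062 intensity units and CCL22 between 1484 and 6276. CCL22 was high on slide 1 in both cultures (5321 and 6276) and lower on the 4 slide 2 arrays (1484 to 2122), a slide difference of -1.38 on the log2 scale, beside a culture change of -0.19 (SE 0.52). CCL27, a ligand of CCR10, had a log2 change of -0.15 (95% interval -0.69 to 0.39).

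CXCL16, a membrane-anchored chemokine that also serves as a scavenger receptor and binds CXCR6, was among the members detected on all 6 arrays. It gave 1005, 1124 and 1178 intensity units in single cultures and 2367, 2042 and 1848 in mix cultures. No mix culture array was below any single culture array. The log2 change was 0.85 (SE 0.18), or 1.80-fold, with limma adjusted p = 0.135 without a block, 0.00394 with the slide block and 0.00992 with the replicate block. It was 1.06 on slide 1 and 0.75 on slide 2. CX3CL1, the other membrane-bound chemokine of the family, had a log2 change of 0.18 (95% interval -0.30 to 0.66) and was not called.

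CXCL10, an interferon-induced chemokine that acts on CXCR3, had 3 probes that did not give the same answer. The pair below comes from the RefSeq messenger RNA named in the design and lies on the minus strand, at chr32:598885-598944 and at chr32:598422-598938. Capitals mark the 54 bases that these probes share.
CXCL10, first probe: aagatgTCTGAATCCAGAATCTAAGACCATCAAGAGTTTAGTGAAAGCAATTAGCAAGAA
CXCL10, second probe: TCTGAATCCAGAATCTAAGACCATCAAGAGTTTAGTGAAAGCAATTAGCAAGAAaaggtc
The first probe stood at 0.9, 0.9 and 1.3 intensity units in single cultures and at 6.2, 4.1 and 4.4 in mix cultures. It was well above background on 1 mix culture array and on no single culture array, so it was not tested and no fold is given. The second probe, at 1.0 to 1.1 in single cultures and 1.9 to 3.8 in mix cultures, was detected on no array. Without the filter on detection, where 0.509% of 43595 probes were called, the first was called (log2 change 2.20, SE 0.23, adjusted p = 0.0115 in limma). That fitted change sets signals near background against each other and is not a measured fold. The third CXCL10 probe comes from an expressed sequence tag and is laid in the opposite direction, at chr32:598275-598334. It was well above background on all 6 arrays, at 10.7 to 16.1 intensity units, and its log2 change was -0.18 (95% interval -0.53 to 0.18).

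**Figure D2:**
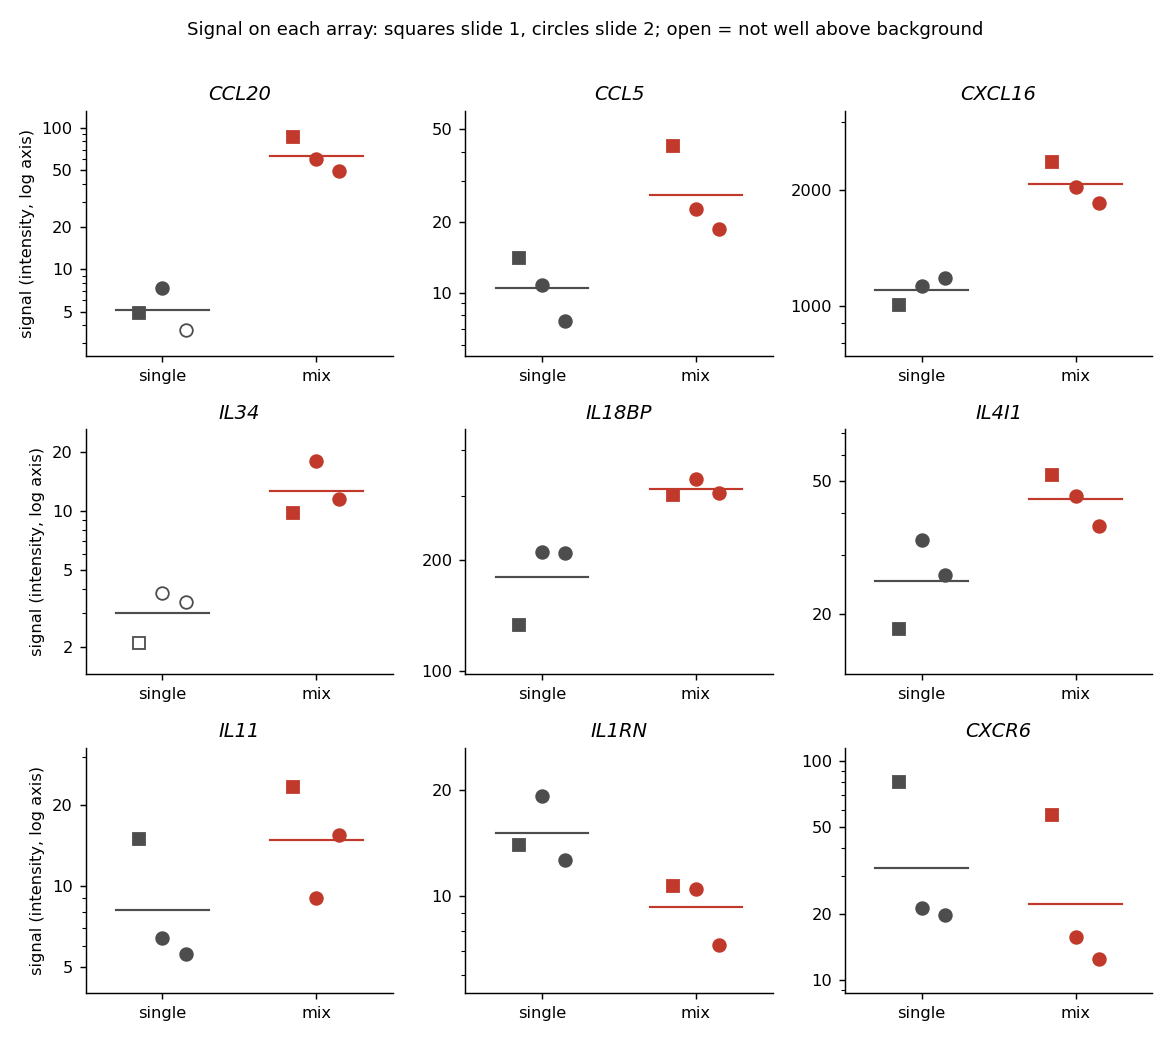
Signal in intensity units (log axis, with a scale of its own in each panel) on each array for 9 members, each by its brightest tested probe, single culture in grey and mix culture in red, squares for slide 1 and circles for slide 2. Open symbols were not well above background and lines are geometric means over 3 arrays. CCL20, CCL5, CXCL16, IL34, IL18BP and IL4I1 sit higher in every mix culture, IL1RN sits lower, and in CXCR6 the slide 1 squares (80.6 and 56.8) stand apart from slide 2 in both cultures.

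Among 15 chemokine receptors, 5 were detected on all 6 arrays (CCR4, CCR10, CXCR3, CXCR4 and CXCR6) and 6 were tested. CXCR6, the receptor of CXCL16, gave 80.6, 21.4 and 19.9 intensity units in single cultures and 56.8, 15.8 and 12.5 in mix cultures. The groups overlapped, and both slide 1 arrays were higher than all slide 2 arrays (slide 2 minus slide 1, -1.63 on the log2 scale). Within each slide every mix culture value lay below every single culture value, with log2 changes of -0.69 on slide 1 and -0.57 on slide 2. The change over all arrays was -0.61 (SE 0.59, adjusted p = 0.893 in limma) and was called with the slide block (SE 0.11, adjusted p = 0.0167) and with the replicate block (adjusted p = 0.027). Without a block it ran from -1.13 without mix culture replicate 1 to -0.05 without single culture replicate 1, both slide 1 arrays.

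CXCR4, the receptor of CXCL12, had 2 probes, both detected throughout. The brighter one gave 137.9, 53.4 and 69.5 intensity units in single cultures and 178.5, 159.9 and 62.4 in mix cultures. Mix culture 2 was high for its slide, mix culture 3 was not, and the groups overlapped. Its log2 change of 0.53 (95% interval -0.38 to 1.45) was not called, and the other probe gave 0.52 (95% interval -0.30 to 1.33). CCR4, CCR10, CXCR3 and CXCR5 had log2 changes of -0.19 to -0.06 and none was called.

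IL34, a ligand of the colony-stimulating factor 1 receptor, had the largest change among 12 interleukins tested. Its signal was 2.1, 3.8 and 3.4 intensity units in single cultures, not well above background on any of them, and 9.8, 18.1 and 11.5 in mix cultures, well above background on all 3. The groups did not overlap. Since the single culture signal has only an upper limit, the change in background-subtracted signal is at least 2.85-fold, a bound given without an interval. The fitted log2 change was 2.0 (limma adjusted p = 0.103 without a block, 0.000241 with the slide block and 0.00016 with the replicate block), with 2.03 on slide 1 and 1.99 on slide 2. The probe entered the test only through the mix culture, and the fitted values set its signal against single culture signals under the detection mark. Its calls with a block describe that contrast, and the bound is the measure of its size in background-subtracted signal alone. With the normexp correction and offset used for CCL20, the IL34 log2 change was 0.18 (SE 0.17, adjusted p = 0.998 in limma without a block). CSF1R, its receptor, gave 4.2 to 8.9 intensity units and was well above background on 5 of 6 arrays, with a log2 change of -0.40 (SE 0.25, adjusted p = 0.777 in limma).

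IL11, which signals through IL11RA and the shared chain IL6ST, gave 15, 6.4 and 5.6 intensity units in single cultures and 23.3, 9.0 and 15.5 in mix cultures. Slide 1 was higher in both cultures and the groups overlapped. The log2 change of 0.80 (95% interval -0.11 to 1.71) was not called in the fits with no block (limma adjusted p = 0.663), the slide block (0.0873) or the replicate block (0.0988). The other tested interleukins, apart from IL34, had log2 changes from -0.44 (IL10) to 0.10 (IL23A) and none was called. IL25, a member of the interleukin 17 family, had a strong slide difference (2874 and 2548 intensity units on slide 1, 507.9 to 687.5 on slide 2) and a culture change of -0.17 (SE 0.68). The IL18 values had opposite signs on the slides, with 0.71 on slide 1 and -0.28 on slide 2 (interaction, unadjusted p = 0.0136 in limma), which was not called after adjustment. Over the family, limma called 0 of 59 probes for a change that differed between the slides, where 5 had an unadjusted p under 0.05. It called 0.0376% of all probes tested, so a count of 0 is near the background.

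The interleukin receptors held the largest number of genes detected throughout, 15 of 34, and none of its 25 tested probes was called by limma without a block or with either block, where 1 had an unadjusted p under 0.05 without a block and 4 with the slide block. Over all probes tested these shares were 8.71% and 25.9%, so neither count stood above the background. The changes of its 16 tested genes ran from -0.47 to 0.15 and had a median of -0.08. IL17RA, the chain shared by receptors of the interleukin 17 family, gave 1442 to 1990 intensity units, with a log2 change of 0.09 (95% interval -0.50 to 0.68). IL17RE, which pairs with it to bind IL17C, had a log2 change of 0.05 (95% interval -0.33 to 0.44). IL1R2, a decoy receptor for interleukin 1, gave 4765 to 5966 intensity units, with a log2 change of -0.22 (95% interval -0.69 to 0.26). IL4R, the chain that receptors of interleukin 4 and interleukin 13 share, had a log2 change of -0.23 (95% interval -0.70 to 0.23).

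Below 0 and not called were IL13RA2, a decoy receptor for interleukin 13, with a log2 change of -0.47 (95% interval -1.07 to 0.12), and IL27RA at -0.41 (95% interval -1.36 to 0.54). The IL13RA2 change was -1.02 on slide 1 and -0.20 on slide 2. The IL27RA value was -0.41 on both slides, and that of its second probe over all arrays was -0.52 (95% interval -1.01 to -0.02, limma adjusted p = 0.554). IL17RD had a log2 change of -0.34 (95% interval -0.79 to 0.10), and IL11RA, the specific chain of the IL11 receptor, one of -0.24 (95% interval -0.87 to 0.39). The lower ends of these intervals lie past -0.5 in each of these genes, so a fall of that size is within what the arrays allow.

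The remaining genes with an interleukin name are antagonists, a binding protein and an enzyme. IL18BP, a secreted protein that binds and neutralises interleukin 18, gave 132.9, 210.9 and 209.9 intensity units in single cultures and 300.5, 334.3 and 304.3 in mix cultures by its brighter probe. All mix culture values were above all single culture values. The log2 change was 0.73 (SE 0.30, adjusted p = 0.564 in limma), called with the slide block (0.011) and the replicate block (0.0244). Its other probe gave 62.2, 95.6 and 99.1 in single cultures and 109.2, 142.3 and 123.9 in mix cultures, a change of 0.50 with adjusted p = 0.0265 in limma with the slide block and 0.0545 with the replicate block.

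IL1RN, the antagonist that occupies the interleukin 1 receptor without signalling, was lower in the mix culture, where it gave 10.7, 10.5 and 7.3 intensity units against 14.0, 19.2 and 12.7 in the single culture. The groups did not overlap. The log2 change was -0.75 (SE 0.24, adjusted p = 0.375 in limma), and it passed the threshold with the replicate block (0.0195) and missed it with the slide block (0.0503). IL4I1, an enzyme that oxidises aromatic amino acids, gave 18.0, 33.3 and 26.1 in single cultures and 52.2, 45.2 and 36.8 in mix cultures. Its change of 0.76 (SE 0.30) was not called in the fits with no block (limma adjusted p = 0.53), the slide block (0.0609) or the replicate block (0.077), and was 1.36 on slide 1 and 0.46 on slide 2.

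**Figure D3:**
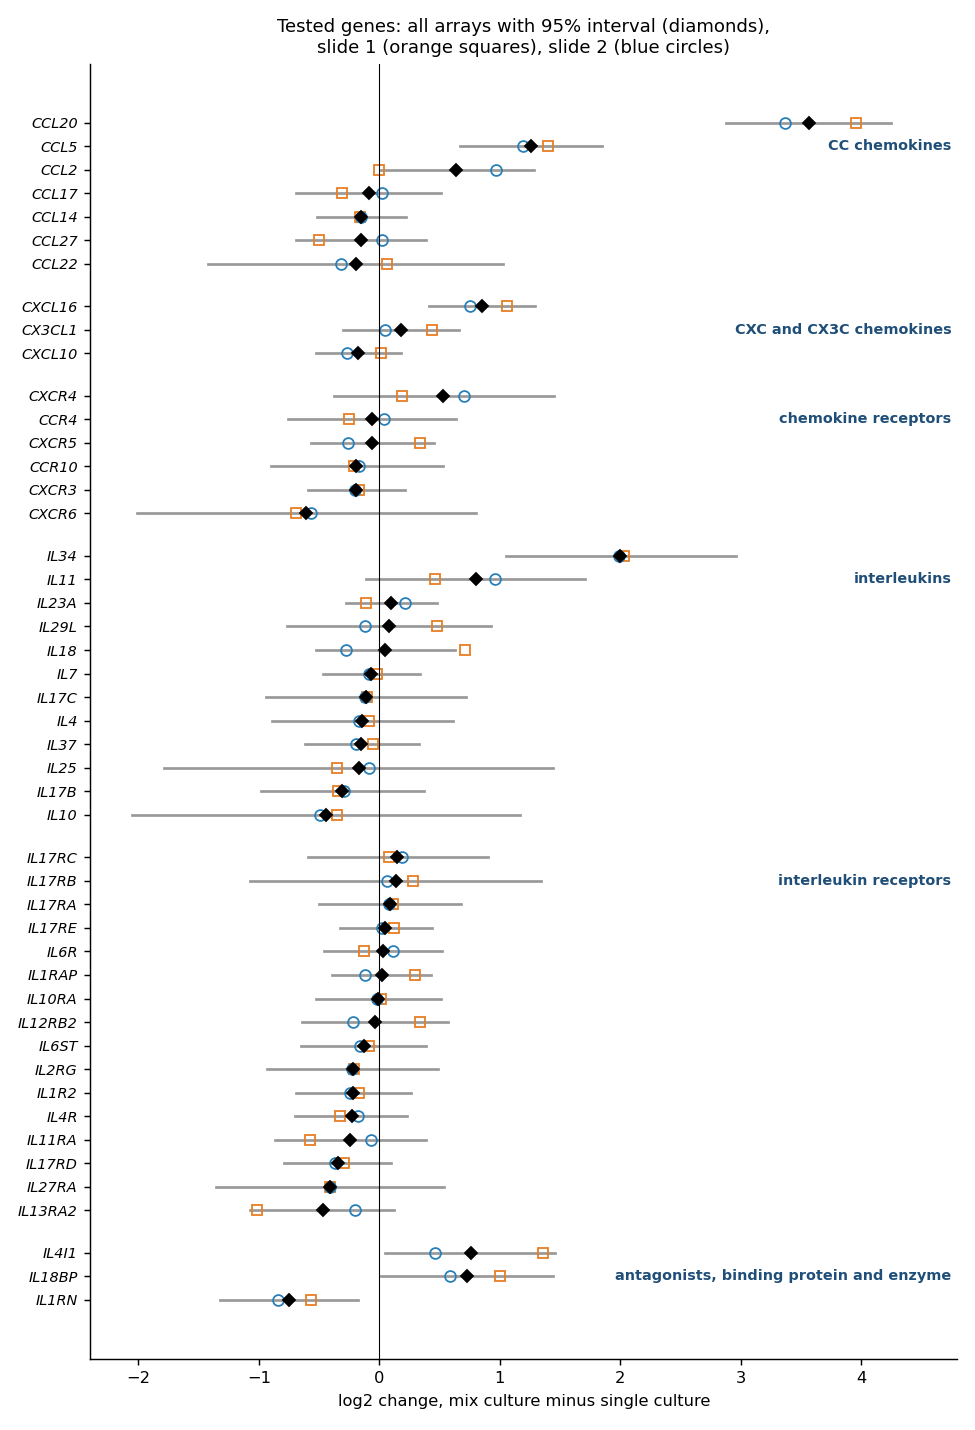
Log2 change, mix culture minus single culture, of the 47 tested genes by role group, with diamonds for all arrays, grey bars for the 95% interval from limma without a block, squares for slide 1 and circles for slide 2. CCL20 (3.57), IL34 (2.0) and CCL5 (1.26) lie farthest to the right on both slides, and 36 of the 47 genes lie within 0.5 of 0.

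In 35 genes the design held more than 1 probe, and in 6 of these one probe was detected on all 6 arrays while another was detected on none. Brightness also depends on the probe's sequence, so it was used to choose probes and genes to name and says nothing of relative abundance, but detection and change can be set side by side. IL4, the cytokine of T helper 2 cells, had a probe at 27401 to 71083 intensity units on the 6 arrays, at chr11:20973117-20973176. Its other 3 probes, at chr11:20978692-20981444, gave 0.9 to 1.3 and were detected on no array. The design credits the bright probe to a cDNA record of its own and the others to the RefSeq messenger RNA. Its change between cultures was -0.14 (95% interval -0.89 to 0.61), so which probe stands for IL4 affects detection and not a call. The other IL1R2 probe gave 0.9 in each single culture and 4.2, 4.7 and 1.9 in mix cultures, where 1 value was well above background, while the bright one had a change of -0.22, and only the bright one was tested. Among the 9 genes with several tested probes, the sign differed in 1, IL6ST, where 4 probes gave changes of -0.13 to 0.10. IL6ST is the signalling chain shared by interleukin 6, interleukin 11 and related cytokines. In 5 genes (CCL2, CCL4, CCL21, CCL28 and CXCL10) the probes were laid in opposite directions on the genome.

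**Figure D4:**
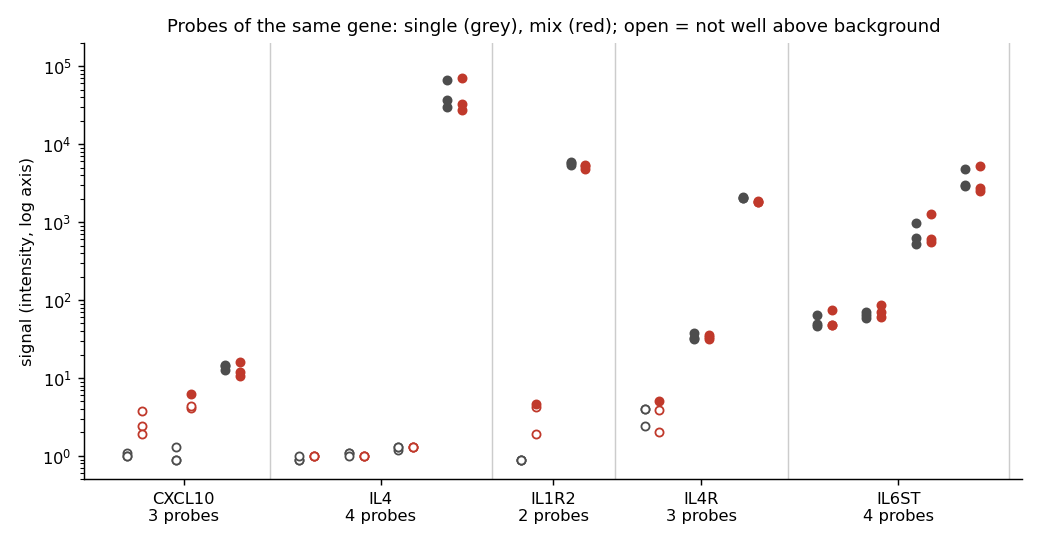
Signal in intensity units (log axis) on the 6 arrays for every probe of 5 genes, single culture in grey and mix culture in red, filled where well above background and open where not. CXCL10 and IL4 each have a probe detected on all 6 arrays and another detected on none. The dimmer IL1R2 probe is detected on 1 mix culture array, and 4 probes of IL6ST are all detected.

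CCL21, IL2RB and IL5 were each detected on some arrays of both cultures and were not tested. CCL21 gave 2.8 to 6.7 intensity units (3 arrays detected), IL2RB 3.5 to 15.3 (3 arrays) and IL5 3.9 to 9.6 (4 arrays). A few further members were detected in 1 culture alone, on some of its arrays. CCL4, a CC chemokine, and IL1RL2, the receptor chain for interleukin 36, were each detected on 2 of 3 mix culture arrays and on no single culture array. CXCL8 was detected on 1 single culture array. Single probes of CCL4, CXCR2, IL12A, IL1R2, IL2, IL22RA1 and IL4R were detected on 1 mix culture array alone. A mean that holds undetected values gives no lower bound, so no fold is given for these members.

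Genes that act beside the family were read from lists of other cytokines, other receptors, signalling adaptors, NF-κB components, NF-κB target genes and suppressors of cytokine signalling, with 1 probe a gene. Without a block, limma called 1 gene over these lists, PLAU, the urokinase plasminogen activator, which was lower in the mix culture (log2 change -1.77, SE 0.27, limma adjusted p = 0.0355). Over all probes tested, limma called 0.871% without a block and 7.22% with the slide block, and 8.71% had an unadjusted p under 0.05 without a block. Of 13 NF-κB subunits and inhibitors tested, none was called without a block (4 had an unadjusted p under 0.05) and 4 were called with the slide block, each with a positive change. These were NFKBIZ (log2 change 0.92, limma adjusted p = 0.00295 with the slide block), NFKBIA (0.76, 0.0125), TNIP1 (0.65, 0.0107) and REL (0.50, 0.0412). NFKBIA and TNIP1 restrain the pathway, REL is a subunit, and NFKBIZ is a nuclear cofactor. The other genes of this list were not called with the slide block. Their log2 changes ran from -0.18 (NFKB1, limma adjusted p = 0.344 with the slide block) to 0.25 (TNFAIP3, 0.445), with RELB at 0.24, NFKB2 at 0.04 and BCL3 at 0.03. The median change of the 13 genes was 0.19, beside -0.05 for all probes tested, and the 4 genes named had adjusted p of 0.119 to 0.494 in limma without a block.

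Of 16 NF-κB target genes tested outside the family, 3 were called with the slide block, a fit that called 7.22% of all probes tested. The counts in the lists below are to be read beside that share. GADD45B, a stress response gene, was higher (log2 change 0.79, limma adjusted p = 0.00746), and PLAU and the survival gene BCL2L1 (-0.51, 0.0272) were lower. Their median was 0.11. Of 9 other cytokines tested, CSF2, the granulocyte-macrophage colony-stimulating factor, was the 1 called with the slide block. It gave 1731, 2601 and 2389 intensity units in single cultures and 1026, 505.9 and 696.1 in mix cultures, with no overlap. This was a log2 change of -1.70 (SE 0.29, adjusted p = 0.0621 in limma without a block and 0.00722 with the slide block). Of 6 other receptors tested, ACKR3, which takes up CXCL12, was called higher with the slide block (log2 change 1.53, limma adjusted p = 0.00388 with it and 0.231 without a block). It gave 9.6, 6.4 and 4.2 intensity units in single cultures and 41.5, 13.2 and 12.8 in mix cultures. This probe entered the test only through the mix culture, so its change rests on single culture values near background. Of 10 adaptors tested, MYD88, which joins interleukin 1 receptors to NF-κB, was called higher with the slide block (0.56, limma adjusted p = 0.0286). Of 10 suppressors tested, SOCS2 (-0.65, 0.0223) and PIAS3 (-0.56, 0.0213) were called lower in that fit. Among the 10 kidney epithelium markers, CDH1 (-0.47, limma adjusted p = 0.0444 with the slide block) and CLDN4 (-0.87, 0.0136) were called lower in the mix culture with that block. The other markers were not called in that fit, and their log2 changes ran from -0.40 (KRT18) to 0.47 (PAX8), with EPCAM at -0.02 and CLDN1 at 0.35. The summed signal of the list was 453 to 527 in single cultures and 335 to 452 in mix cultures, in units of each array's 75th percentile. KRT18, the brightest marker (42311 to 73485 intensity units), weighs most in that sum. None of the 6 leukocyte, 3 fibroblast and 3 endothelium markers tested was called in limma with no block or with the slide block. Of these, 0 had an unadjusted p under 0.05 without a block and 3 with it. Over all probes tested these shares were 8.71% and 25.9%, so neither count stood above the background. The part that these markers have in the changes of the family was not tested.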

How the data were processed

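The authors deposited 1 scanner file per array (Agilent 1-colour canine array, 6 arrays), whose background-subtracted spot intensity on a linear scale was used, and a table of log2 values of the same arrays whose steps are not given in the sources used here. Each of its 6 columns had a median of 0. Its values were centred within each slide, as setting them against the scanner files showed, its scale is log2, and the columns of mix cultures 2 and 3 each matched the scanner file of the other. It served as an alternative.

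Flagged spots (5 to 9 per array) and control spots were left out, repeat spots of a probe were averaged, and the 75th percentile of each array's log2 intensity was subtracted. The test was limma 3.58.1 (R 4.3.3, moderated by eBayes, two-sided) on probes that were detected on all arrays of one group or of both. The p-values were adjusted by Benjamini-Hochberg over all 26623 such probes, and 0.05 was the threshold. The steps were tested on simulated data with independent noise and no slide effect, so that test does not bear on the choice between fits with and without a block. Changes are mix culture minus single culture. A gene is represented by its brightest tested probe. A lower bound sets the mean log2 signal of the detected group against the mean, over the other group's arrays, of the probe's own signal or, where it is higher, the lowest signal marked as detected on that array. Same-numbered arrays deviated together from their group means (correlations of 0.801, 0.53 and 0.572), so the number was used as a block. Arrays with different numbers on slide 2 deviated together as much (0.61 and 0.632), so the pairing cannot be told apart from the slide.

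The text names CCL20, members called in any of the fits with no block, the slide block or the replicate block, members with a bound, the 12 largest changes among members detected throughout, the 3 brightest of each role group, and other members detected throughout by value or range. Members and lists were chosen with earlier results of these data known. Of the 112 symbols, 111 were matched to RefSeq genes of the dog (assembly UU_Cfam_GSD_1.0), for names alone. Members without detection are mostly given by count. Probe sequences and positions are those of the scanner files. Other settings were quantile normalisation, normexp on the median spot signal, other filters, slide 2 alone, the authors' table, the unpaired test of the study's methods and leaving out each array. With 6 arrays, their number limits the precision.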

Additional observations from a re-analysis of the deposited data

How the results depend on the processing

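CCL20 was called in 14 of 15 alternatives, with a log2 change of 3.36 to 3.90 when 1 array was left out and 0.99 with normexp. The exception was the unpaired test of the study's methods, where its adjusted p was 0.123 (log2 change 3.57). The filter that keeps probes well above background on all 6 arrays removes CCL20, and then 0 of 52 tested probes of the family were called by limma (6 at an unadjusted p under 0.05). The count of called family probes was 1 without a block, 2 without the filter, 7 with the slide block, 7 with the replicate block, 7 with the replicate block and mix cultures 2 and 3 crossed, 5 on slide 2 alone, 11 from the authors' table, 0 by the methods' test (5 at an unadjusted p under 0.05) and 1 in each fit that left out 1 array. Over all probes tested it was 232, and 101 with normexp, 142 with detection on all 6 arrays, 1922 with the slide block, 1411 with the replicate block, 1458 with the crossed block, 985 on slide 2 alone, 4077 from the authors' table and 8 by the methods' test. The authors' values were centred within each slide and fitted with no slide term. That fit takes too many residual degrees of freedom, so its p-values tend to be too small, also where it adds calls below. Leaving out 1 array gave 86 to 244, with 94 without single culture replicate 3, 92 without mix culture replicate 2 and 86 without mix culture replicate 3. The cause was not tested. Among the 14 other probes followed through every setting, of the 12 largest changes, the called members and IL34, the side of the threshold and the direction were those without a block in 191 of 223 fits, 31 gained a call, and IL11RA turned in direction once, to 0.04 without mix culture replicate 1 (range -0.43 to 0.04 when 1 array was left out). With 1 array left out, the log2 change without a block ranged from 0.41 to 0.91 for IL18BP, 0.43 to 1.02 for IL4I1, -0.76 to -0.07 for IL27RA, 0.30 to 0.90 for CXCR4, 0.57 to 1.14 for IL11, -0.89 to -0.51 for IL1RN and -0.72 to -0.22 for IL13RA2. The lowest IL18BP and IL4I1 values came without single culture replicate 1. Signals within reach of background, as for CCL20, IL34, CCL2 and CXCL10 in single cultures, limit how closely a fold can be given.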
